A study of Mus musculus with 20 samples.

Results

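The difference in left ventricular RNA between mice fed folic acid (FA) and mice fed placebo was followed over mice with and without doxorubicin (DOXO), as the mean of FA-sham minus sham and FA-DOXO minus DOXO. All 20 arrays of the series entered, 10 from FA-fed and 10 from placebo-fed mice, assigned by their titles. The description covers the 21640 of 34760 transcript clusters that carry exactly 1 gene symbol, a transcript cluster being the array's summary of the probes over the exons of a gene. Tests were adjusted over all 34760. All mice were male C57BL/6, labelled as 2 months old, and RNA of 1 left ventricle was hybridized to 1 Affymetrix Mouse Gene ST array. The 4 FA-sham mice received saline and FA, and the 4 sham mice saline and placebo. The 6 FA-DOXO mice received a single intraperitoneal dose of 20 mg/kg DOXO and FA, and the 6 DOXO mice the same dose and placebo. FA feeding (10 mg daily, in a soft dough that the other mice received as placebo) started 7 days ahead of the injection and lasted to the end on day 10, so only mice alive on that day could be arrayed. No source used here says which mice shared a cage, a litter or a hybridization run, so p-values measure the spread between these mice, whatever its source.

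Folate carries single carbon units for the synthesis of purines and thymidylate and for the remethylation of homocysteine to methionine, which in turn feeds the methylation of DNA and proteins. In vessels and heart, reduced folates are also known for keeping tetrahydrobiopterin in its active form, so that endothelial nitric oxide synthase makes nitric oxide and not superoxide. A ventricle is mostly cardiomyocytes by mass, with endothelial cells, fibroblasts and blood cells between them, and its most abundant mRNAs encode sarcomeric and mitochondrial proteins. As a check of the tissue, the 11 cardiomyocyte markers, among them Myh6, Tnnt2, Ryr2 and Mb, were all measured and averaged a log2 signal of 10.43 over all mice. Probes differ in affinity, so signals order genes only roughly by abundance. In RNA from whole tissue, fewer cells of a type and less RNA per cell cannot be told apart.

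The arrays as a whole had a higher median and, on average, a smaller spread in FA-fed mice, of which only the median passed its test. The spread of an array, taken as the SD of its 34760 log2 values, was 0.957 ± 0.123 in FA-sham and 1.27 ± 0.253 in sham mice (SD, n = 4 each). It was 1.04 ± 0.185 in FA-DOXO and 1.13 ± 0.265 in DOXO mice (SD, n = 6 each). Over the FA arrays it ran between 0.863 and 1.34 with a median of 0.947, and over the placebo arrays between 0.907 and 1.50 with a median of 1.11, so the diets overlapped. The mean of both differences was -0.199 with an exact two-sided permutation p of 0.0669, the diet labels being permuted within sham and within DOXO. That p lay below 0.05 without sham replicate 4 (0.0276), FA-DOXO replicate 5 (0.0340), DOXO replicate 6 (0.0435) or DOXO replicate 3 (0.0438). It rose without several others, the furthest without DOXO replicate 5 (0.1269), DOXO replicate 1 (0.1175), sham replicate 2 (0.117) and sham replicate 3 (0.1121). The median of an array was higher by 0.15 with FA (exact two-sided permutation p = 0.0212). Unlike the test of the spread, that of the median was not planned ahead and was not repeated without single mice. Arrays with an SD above 1.1, called wide here and the others narrow, were those of 1 of 4 FA-sham (replicate 4), 3 of 4 sham (all but replicate 4), 2 of 6 FA-DOXO (replicates 5 and 6) and 2 of 6 DOXO mice (replicates 1 and 5). Since the spread tended to be unequal between the diets, each value below is given without and with the array SD as a covariate, and its part in the differences was not tested.

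**Figure D1:**
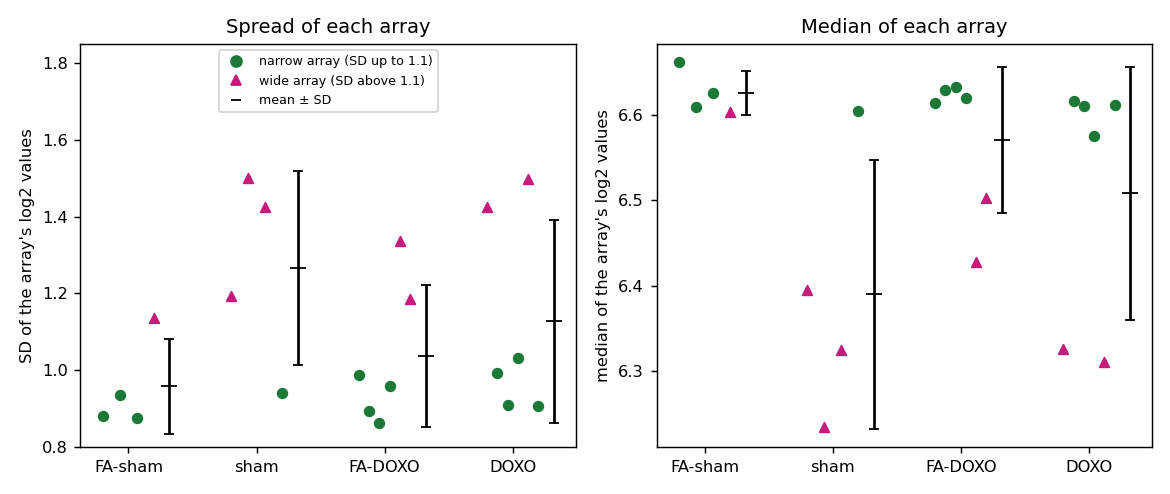
Each point is the array of 1 mouse, with the SD of its log2 values on the left and their median on the right, in FA-sham, sham, FA-DOXO and DOXO mice, with the group mean ± SD beside the points. Of the 8 wide arrays, 3 came from FA-fed and 5 from placebo-fed mice, and the wide arrays of sham and DOXO mice had the lowest medians.

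No transcript cluster differed between FA and placebo once p-values were adjusted, except with array weights and no covariate. Without a covariate, limma gave 0 clusters with a Benjamini-Hochberg adjusted p under 0.05, the smallest being 0.206, while 8435 had an unadjusted p under 0.05. At the unadjusted threshold of 0.01, which the study used and which is meant below wherever a cluster is said to pass, 913 clusters passed (2.63%), where 348 would be the nominal number. Of these, 825 were higher with FA (2.37%) and 88 lower (0.253%). Among clusters with 1 gene symbol, 493 were higher and 11 lower. The split depended on the scaling. All clusters together had a median difference of 0.12, which centring each array on its median moved to -0.03, and then 253 passed as higher and 347 as lower. After quantile normalization the numbers were 300 and 204. The total also depended on single mice. It was 6427 without sham replicate 4, 2206 without FA-DOXO replicate 5 and 1563 without DOXO replicate 6. It was 511, 332 and 323 without FA-sham replicates 1, 2 and 3, and 221 and 252 without sham replicates 2 and 3. Without FA-DOXO replicates 1, 2, 3 and 4 it was 503, 428, 418 and 450, and without DOXO replicate 1 it was 432. None of these fits without 1 mouse gave an adjusted p under 0.05. With array weights instead, which ran between 0.0944 and 4.35, 23440 clusters passed and 26306 had an adjusted p under 0.05.

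With the array SD as a covariate, limma again gave 0 clusters with an adjusted p under 0.05, the smallest being 0.627 and 2183 having an unadjusted p under 0.05. The unadjusted threshold was passed by 454 clusters (1.31%), 421 higher with FA (1.21%) and 33 lower (0.0949%). Among clusters with 1 symbol, 293 were higher and 2 lower. After median centring 141 passed as higher and 143 as lower, and after quantile normalization 195 and 170. The total was 800 without sham replicate 4 and 275 without FA-DOXO replicate 5. The 2 fits named different clusters for the most part. They shared 150 clusters, which is 16.4% of those that passed without the covariate and 33.0% of those that passed with it. Of the 454 that passed with the covariate, 260 had the opposite sign without it.

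The size and the sign of the FA difference followed the level of a cluster. Without a covariate, the median difference was 0.22 in the 2164 named clusters of lowest mean signal (decile 1) and 0.24 in decile 2. It was -0.02 in decile 7 and -0.72 in the decile of highest signal. With the covariate the decile medians lay between 0.03 and 0.10. On the 12 narrow arrays alone, without a covariate, they were 0.06 in the lowest and -0.12 in the highest decile, and on the 8 wide arrays alone 0.25 and -0.53. Genes of weak signal thus stood higher and genes of strong signal lower in FA-fed mice in each of these fits but the one with the covariate. The clusters that passed as higher without the covariate came mostly from weak signals, 125 from decile 1 and 2 from decile 10. With the covariate it was 28 from decile 1 and 76 from decile 10.

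**Figure D2:**
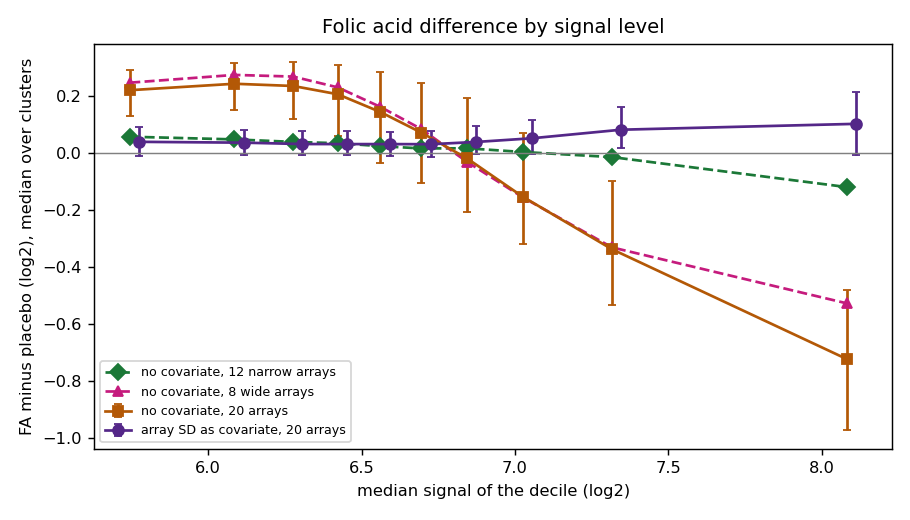
The median of FA minus placebo on the log2 scale is plotted for the 10 deciles of clusters with 1 gene symbol, ordered by mean log2 signal, with bars from the lower to the upper quartile of the clusters in the fits over 20 arrays. Without a covariate the line falls through 0 near decile 7 and reaches -0.72, while with the array SD as a covariate it stays between 0.03 and 0.10.

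The mice behind FA-sham minus sham and those behind FA-DOXO minus DOXO were different animals. Without a covariate, 76.1% of all clusters had the same sign in both interventions, and the differences correlated with r = 0.67 over 34760 clusters, which are not independent and share the spread of their array. The median difference was 0.19 in sham and 0.03 in DOXO mice. With the covariate 47.9% had the same sign and r was -0.03, the slope on the array SD being estimated from all mice together. On narrow arrays alone 55.9% had the same sign with r = 0.25, and that fit has only 1 sham mouse. Tested cluster by cluster, the FA differences in DOXO and sham differed in 0 clusters at an adjusted p under 0.05 in either fit, with 1803 at an unadjusted p under 0.05 without the covariate and 3000 with it. Without sham replicate 4, the fit with the covariate gave 4.

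**Figure D3:**
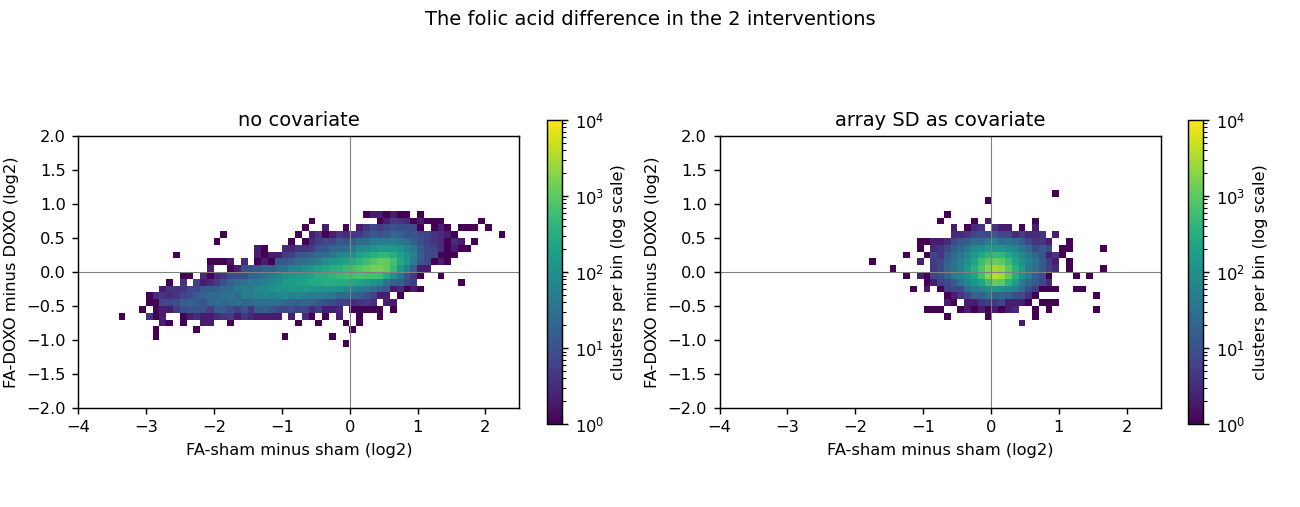
Transcript clusters are counted in bins of 0.1 log2 units by their FA difference in sham mice (horizontal axis) and in DOXO mice (vertical axis), without a covariate on the left and with the array SD as a covariate on the right, on a logarithmic colour scale. The elongated cloud on the left (r = 0.67) contrasts with the round one on the right (r = -0.03).

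The named clusters that passed with the largest differences upwards without a covariate were mostly receptors of the nose. Of the first 10, 8 were olfactory receptors, the odorant-binding G protein-coupled receptors of olfactory neurons (Olfr539, Olfr1134, Olfr728, Olfr706, Olfr1009, Olfr493, Olfr498 and Olfr1200). The others were Vmn1r171, a pheromone receptor of the vomeronasal organ, and Prl7c1, a member of the prolactin family known from the placenta. Their differences were 0.60 to 0.73, all with an adjusted limma p of 0.206, and 0.24 to 0.40 with the covariate, where none of the 10 passed. Mean log2 signals lay between 6.29 and 7.81. Olfr539 (cluster 10558666) had 7.31, 7.62, 7.54 and 7.22 in FA-sham mice and 6.76, 5.62, 5.86 and 7.05 in sham mice. It had 6.45, 7.15 and 7.39 (lowest, median and highest) in FA-DOXO and 5.37, 7.03 and 7.19 in DOXO mice. FA-sham lay wholly above sham, as it did in 4.22% of all clusters, FA-DOXO and DOXO overlapped, and the 5 lowest of its 20 values were all on wide arrays. The difference was 0.73 ± 0.24 (SE) without and 0.27 ± 0.11 with the covariate. None of the 10 kept an unadjusted p under 0.01 without each mouse in turn, 5 passed after quantile normalization and 3 after median centring.

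Over the whole families the same shift was seen. Of 1023 olfactory receptor clusters, 165 passed as higher without the covariate (16.1%, against 2.37% of all clusters) and 0 as lower, with a median of 0.39 against 0.12 for all clusters. After quantile normalization or median centring the family's median was 0.24. With the covariate 17 passed as higher (1.66%, against 1.21% of all clusters) and the median was 0.12, against 0.04 for all clusters. Of 169 vomeronasal receptor clusters, 23 passed as higher without (13.6%) and 1 with the covariate (0.592%). Olfactory receptors made up 165 of the 493 named clusters that passed as higher without the covariate and 17 of the 293 with it. The median of the olfactory family was 0.14 on narrow arrays alone and 0.51 on wide arrays alone. Their mean signal, 6.32, lay below the medians of most arrays.

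RNAs of mitochondria and muscle were among those at the other end. The 10 named clusters that passed with the largest difference downwards without a covariate were Cycs, which encodes cytochrome c, the electron carrier between complexes III and IV, Trdn, which encodes triadin of the calcium release unit, both clusters of ND3, a complex I subunit encoded in the mitochondrial genome, Rn7sk, the 7SK RNA that holds the elongation factor P-TEFb inactive, Mitf, a transcription factor best known from pigment cells, Wfdc1, a secreted protein of the protease inhibitor type, Sh3bgr, a protein of heart and skeletal muscle, H2ac15, a histone H2A gene, and BC002059. Their differences were -0.96 to -0.28, each with an adjusted limma p of 0.206. All 10 were also below 0 with the covariate (-0.48 to -0.15) and on narrow arrays alone (-0.70 to -0.08), but none passed with the covariate. After quantile normalization ND3 (cluster 10598055) and Rn7sk turned to 0.10 and 0.02.

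Cycs (cluster 10528170) had 10.96, 12.53, 11.39 and 12.94 in FA-sham mice and 14.13, 13.63, 13.63 and 12.57 in sham mice. It had 10.82, 12.69 and 13.21 (lowest, median and highest) in FA-DOXO and 12.08, 12.81 and 13.89 in DOXO mice, so the diets overlapped in both interventions. The difference was -0.96 ± 0.33 (SE) without and -0.48 ± 0.28 with the covariate. Another 2 clusters carry the symbol Cycs, at -1.19 and -0.01 without the covariate, and neither passed. Trdn (cluster 10362426) is 1 of 19 clusters of its gene, all 19 of which were below 0 without the covariate and 3 above 0 with it, and it was the only 1 that passed. Rn7sk (cluster 10595140) was the only cluster of the 10 that kept an unadjusted p under 0.01 in all 20 fits without 1 mouse. It had 12.98, 13.52, 12.96 and 13.54 in FA-sham and 14.48, 14.10, 14.11 and 13.55 in sham mice. FA-sham lay wholly below sham, as in 0.59% of all clusters, but its highest value was only just under the lowest sham value. It had 13.29, 13.42 and 13.78 in FA-DOXO and 13.34, 13.56 and 14.40 in DOXO mice, which overlapped. The difference was -0.50 ± 0.15 (SE), or -0.31 ± 0.13 with the covariate. Another cluster carries the symbol Rn7sk, at -0.39 without and -0.22 with the covariate, and it did not pass. The 2 clusters of Mitf were at -0.39 and -0.32 without the covariate, where 1 passed, and at -0.16 and 0.14 with it.

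With the array SD as a covariate the genes at the top were others. The 10 named clusters with the largest difference upwards were 2 of Glul, glutamine synthetase, 2 of Psmd2, a subunit of the 19S proteasome cap, and 1 each of Hsp90aa1 and Hspb1, both heat shock proteins, Pam, which amidates peptide hormones and is abundant in heart, Clu, the secreted chaperone clusterin, Cat, catalase, and Atxn10. Their differences were 0.51 to 0.62 with adjusted limma p-values of 0.704 to 0.745, and 3 of the 10 still passed after quantile normalization and 7 after median centring. The Hsp90aa1 cluster was of low signal (5.72), and the other 2 clusters of that gene, at 7.78 and 7.70, differed by 0.20 and 0.25 and did not pass. The other Hspb1 cluster, at 0.51, did not pass either. All 10 were below 0 without the covariate (-1.08 to -0.33), and on narrow arrays alone 9 of 10 were below 0 (-0.15 to 0.13). The 2 lower named clusters, 1700066M21Rik at -0.21 and Mir325 at -0.20, were above 0 without the covariate, at 0.03 and 0.10.

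Glul (cluster 10374453) had 7.12, 7.30, 7.17 and 9.34 in FA-sham mice and 8.05, 10.16, 9.99 and 6.96 in sham mice. It had 7.15, 7.78 and 10.75 (lowest, median and highest) in FA-DOXO and 7.13, 8.42 and 12.03 in DOXO mice. In each group the wide arrays held the higher values, and the groups overlapped. The difference was -0.87 ± 0.69 (SE) without and 0.60 ± 0.14 with the covariate, where it was -0.02 in DOXO and 1.22 in sham mice, with an unadjusted limma p for the difference between them of 1.4e-04 (adjusted 0.535). The single wide FA-sham array, replicate 4, held the high FA-sham value in Glul. Without that mouse the difference with the covariate was 0.53. Cat was at 0.52 ± 0.18 with all mice and at 0.38 without FA-sham replicate 4, and no longer passed. Hspb1 and Pam, at 0.42 and 0.51 without that mouse, and 1 of the 2 Psmd2 clusters no longer passed either, while the other 6 clusters did.

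**Figure D4:**
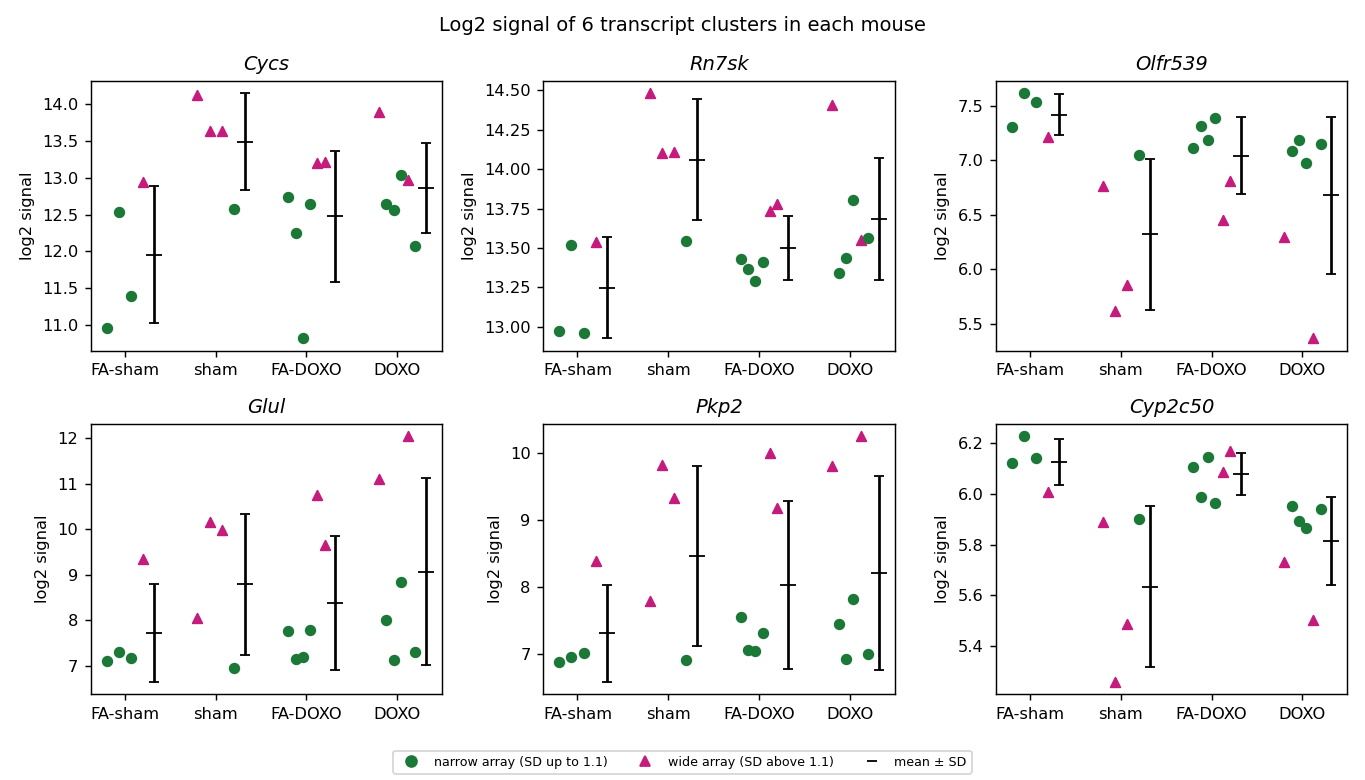
The log2 signal in each mouse is shown for Cycs, Rn7sk, Olfr539, Glul, Pkp2 and Cyp2c50, with narrow and wide arrays marked and the group mean ± SD beside the points. In Glul and Pkp2 the wide arrays hold the high values of every group, in Olfr539 they hold the low ones, and in Cyp2c50 all FA values lie above the placebo values of the same intervention.

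Of the 150 clusters that passed in both fits, 136 were higher with FA and 14 lower, and the 79 with 1 gene symbol were all higher, 16 of them olfactory receptors. After quantile normalization and median centring as well, 27 of the 150 passed, 10 of them with 1 symbol. Ranked by p in the fit with the covariate, a choice made after the values were seen, the first 10 were Olfr155, Svs3b, Olfr108, Olfr702, Olfr293, Cdh18, Dnah3, Olfr180, Hs6st2 and Cyp2c50. Svs3b encodes a seminal vesicle secretory protein, Cdh18 a cadherin of the nervous system, Dnah3 an axonemal dynein, Hs6st2 a heparan sulphate sulfotransferase and Cyp2c50 a cytochrome P450 of the liver. Their mean log2 signals were low, 5.71 to 6.42. All 10 passed in each of the 20 fits without 1 mouse, in both fits, which their choice by small p-values on the same arrays favours. But in Dnah3, Svs3b and Olfr155 the FA differences in DOXO and sham were unequal at an unadjusted limma p under 0.01 with the covariate, and larger in sham mice. With the covariate Dnah3 was at -0.07 in DOXO and 0.48 in sham mice (unadjusted limma p for the difference between them = 2.18e-05, adjusted 0.259). Dnah3 has 33 clusters, of which 3 passed without and 1 with the covariate. With it the 33 ran between -0.14 and 0.20, and 25 were above 0. Of the 2 Cdh18 clusters, at 0.18 and 0.53 without and 0.05 and 0.25 with the covariate, 1 passed in each fit. After quantile normalization Cyp2c50 no longer passed without the covariate, and Hs6st2 no longer with it, as also after median centring. Olfr155 (cluster 10504422) had 6.46, 6.46, 6.65 and 6.37 in FA-sham and 5.86, 5.42, 5.49 and 6.27 in sham mice. FA-sham lay wholly above sham, as in 4.22% of all clusters. It had 5.95, 6.26 and 6.53 in FA-DOXO and 5.73, 6.14 and 6.28 in DOXO mice, which overlapped. The difference was 0.46 ± 0.12 (SE) without and 0.24 ± 0.05 with the covariate, with adjusted limma p-values of 0.206 and 0.704.

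Only 2 of all 34760 clusters (0.00575%) had every FA-fed mouse above every placebo-fed mouse in sham and in DOXO, and 0 had every FA-fed mouse below. They were Cyp2c50 and Olfr309, and they too were looked up after the values were seen. Cyp2c50 (cluster 10463051) had 6.12, 6.23, 6.14 and 6.01 in FA-sham and 5.89, 5.26, 5.49 and 5.90 in sham mice. It had 5.96, 6.10 and 6.17 in FA-DOXO and 5.50, 5.88 and 5.95 in DOXO mice. The gap between the diets was narrow in both interventions. Its difference was 0.38 ± 0.09 (SE) without and 0.26 ± 0.07 with the covariate, with adjusted limma p-values of 0.206 and 0.73. After quantile normalization it was 0.16 without the covariate and did not pass. Its signal was below the array's median in every mouse, and it belongs to a family of closely similar P450 genes. Olfr309 (cluster 10565383) differed by 0.54 ± 0.18 without and by 0.28 ± 0.14 with the covariate, where it did not pass.

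Genes of folate metabolism did not stand out. Of 26 folate uptake and one-carbon genes measured, 0 passed in either fit, against 2.63% and 1.31% of all clusters. Their median difference was 0.03 without and 0.06 with the covariate, against 0.12 and 0.04 for all clusters. Slc19a1, the reduced folate carrier, differed by 0.41 ± 0.19 (SE) without and 0.06 ± 0.10 with the covariate, and Folr1, a folate receptor, by 0.34 ± 0.14 and 0.06 ± 0.06. Gldc, the glycine decarboxylase that loads one-carbon units in mitochondria and came nearest to the threshold, was at 0.38 ± 0.13 and 0.12 ± 0.06. Mtr, methionine synthase, was at -0.24 ± 0.18 and 0.06 ± 0.13. Of 19 genes of the methionine cycle and transsulfuration 0 passed, with medians of 0.13 and 0.05, and of 12 genes that write or erase DNA methylation 0 passed, with medians of 0.00 and -0.01. With the covariate 1 of these 12 passed as lower after quantile normalization and 1 after median centring. Dnmt1, the maintenance methyltransferase, was at -0.01 ± 0.09 and 0.00 ± 0.10.

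Nor did genes of nitric oxide synthesis. Of 19 genes for nitric oxide synthases, tetrahydrobiopterin and arginine handling, 0 passed in either fit, against 2.63% and 1.31% of all clusters. Their medians were -0.09 without and 0.06 with the covariate, against 0.12 and 0.04 for all clusters. With the covariate 1 of the 19 passed as lower after quantile normalization and 1 after median centring. Nos3, the endothelial synthase, had 6.95, 6.82, 6.89 and 7.01 in FA-sham and 6.51, 7.72, 7.30 and 6.98 in sham mice. It had 6.80, 6.93 and 7.26 in FA-DOXO and 6.86, 6.95 and 8.41 in DOXO mice. The groups overlapped, and the difference was -0.22 ± 0.18 (SE) without and 0.03 ± 0.16 with the covariate. Nos1 was at 0.30 ± 0.13 and 0.06 ± 0.06, and Nos2 at 0.08 ± 0.09 and 0.00 ± 0.08. Gch1, the first enzyme of tetrahydrobiopterin synthesis, was at -0.08 ± 0.08 and -0.07 ± 0.08. These arrays measure mRNA and not the activity of the enzymes.

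The strongly expressed programmes of the cardiomyocyte had the lowest medians without the covariate. Of 19 sarcomere genes 19 were below 0 with a median of -1.36, of 34 complex I genes 34 with -1.15, of 33 genes of complexes II to V 33 with -1.18, of 23 glycolysis and TCA cycle genes 23 with -1.06 and of 24 fatty acid genes 22 with -1.02. None of these genes passed, against 2.63% of all clusters. The complex I list did not hold ND3, whose 2 clusters both passed as lower without the covariate. All named clusters in the decile of highest signal had a median of -0.72 with quartiles of -0.97 and -0.48, while 59.1% of all named clusters were above 0. With the covariate the medians were 0.20 for the sarcomere, -0.13 and -0.11 for the respiratory complexes, 0.24 for glycolysis and the TCA cycle and 0.27 for fatty acid uptake and oxidation. Again none passed, against 1.31% of all clusters, and the decile of highest signal had a median of 0.10. On narrow arrays alone the medians were -0.33, -0.52, -0.68, -0.25 and -0.24 in the order of the lists. The 11 cardiomyocyte markers had 0 that passed and a median of -1.41 without and -0.06 with the covariate. Their mean log2 signal per mouse was between 8.19 and 11.45 in FA-sham, 9.59 and 12.89 in sham, 8.22 and 11.98 in FA-DOXO and 8.83 and 12.53 in DOXO mice. These ranges within a group exceeded the differences between the group means, and the part of the array SD in the medians was not tested.

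Members of 5 of the 45 lists passed with the covariate and members of 6 without it. Among the 13 desmosome and intercalated disc genes, 2 passed with the covariate as higher, Pkp2, the plakophilin of the cardiac desmosome, at 0.47 ± 0.10 (SE) and Cdh2, N-cadherin, at 0.39 ± 0.09. Over all clusters 1.21% passed as higher. Pkp2 and Cdh2 passed in all 20 fits without 1 mouse, but after quantile normalization Cdh2 did not pass, and with the covariate it was at 0.11 in DOXO and 0.67 in sham mice (unadjusted limma p for the difference between them = 0.0033, adjusted 0.535). All 13 were above 0 with the covariate (median 0.20), as were 72.6% of named clusters, and below 0 without it (median -0.67). On narrow arrays alone 6 of 13 were above 0. The adjusted limma p of Pkp2 (cluster 10433887) with the covariate, 0.627, was the smallest that any cluster had, shared with others. It had 6.88, 6.95, 7.01 and 8.39 in FA-sham and 7.78, 9.81, 9.33 and 6.91 in sham mice. It had 7.05, 7.43 and 10.00 in FA-DOXO and 6.92, 7.63 and 10.25 in DOXO mice. The groups overlapped, the difference without the covariate was -0.67 ± 0.54, and on narrow arrays alone it was -0.01.

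The remaining members that passed with the covariate were Cat (antioxidant enzymes, 1 of 26), Cp, the copper-carrying ferroxidase ceruloplasmin (acute-phase proteins, 1 of 19) at 0.40 ± 0.13, Gabarapl1, an autophagosome protein (atrophy and autophagy, 1 of 20) at 0.46 ± 0.16, and Cd3g. Cp and Gabarapl1 were at -0.83 and -0.74 without it. With the covariate Cat, Cp and Gabarapl1 passed neither after quantile normalization nor after median centring. Over all clusters 1.21% passed as higher with the covariate, and 2.37% as higher and 0.253% as lower without it. The members that passed without the covariate were Cycs (apoptosis regulators, 1 of 18, lower) and, all higher, Csta1, a cysteine protease inhibitor (stefins, 1 of 4) at 0.35 ± 0.12, Myl7, the atrial myosin light chain (foetal genes, 1 of 11, and atrial markers, 1 of 6) at 0.42 ± 0.14, Mstn, which encodes myostatin (atrophy and autophagy, 1 of 20) at 0.48 ± 0.16, and Cd3g, a chain of the T cell receptor complex (T and NK cells, 1 of 11) at 0.44 ± 0.14. Without the covariate Csta1 and Myl7 passed neither after quantile normalization nor after median centring. Mstn did not pass after median centring, nor Cycs after quantile normalization. Cd3g was the only list member that passed in both fits, at 0.17 ± 0.05 with the covariate. In that fit it was at -0.02 in DOXO and 0.35 in sham mice (unadjusted limma p for the difference between them = 4.99e-04, adjusted 0.535), and it did not pass after median centring. It had 6.57, 6.51, 6.60 and 6.28 in FA-sham and 5.89, 5.30, 5.43 and 6.20 in sham mice. FA-sham lay wholly above sham, as in 4.22% of all clusters. It had 5.86, 6.29 and 6.35 in FA-DOXO and 5.48, 6.33 and 6.38 in DOXO mice, which overlapped. The other T and NK cell markers were at 0.19 to 0.38 without and -0.03 to 0.08 with the covariate, and the mean of all 11 ran between 6.21 and 6.53 in FA-sham and 5.56 and 6.37 in sham mice.

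Over all lists, 29 of 45 medians were below 0 without the covariate and 9 of 45 with it. The endothelial markers had a median of -0.51 without and 0.12 with the covariate, the fibroblast markers -0.22 and 0.09, the macrophage markers -0.16 and 0.10 and the neutrophil markers 0.20 and 0.12. None of these markers passed in either fit, against 2.63% and 1.31% of all clusters.

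**Figure D5:**
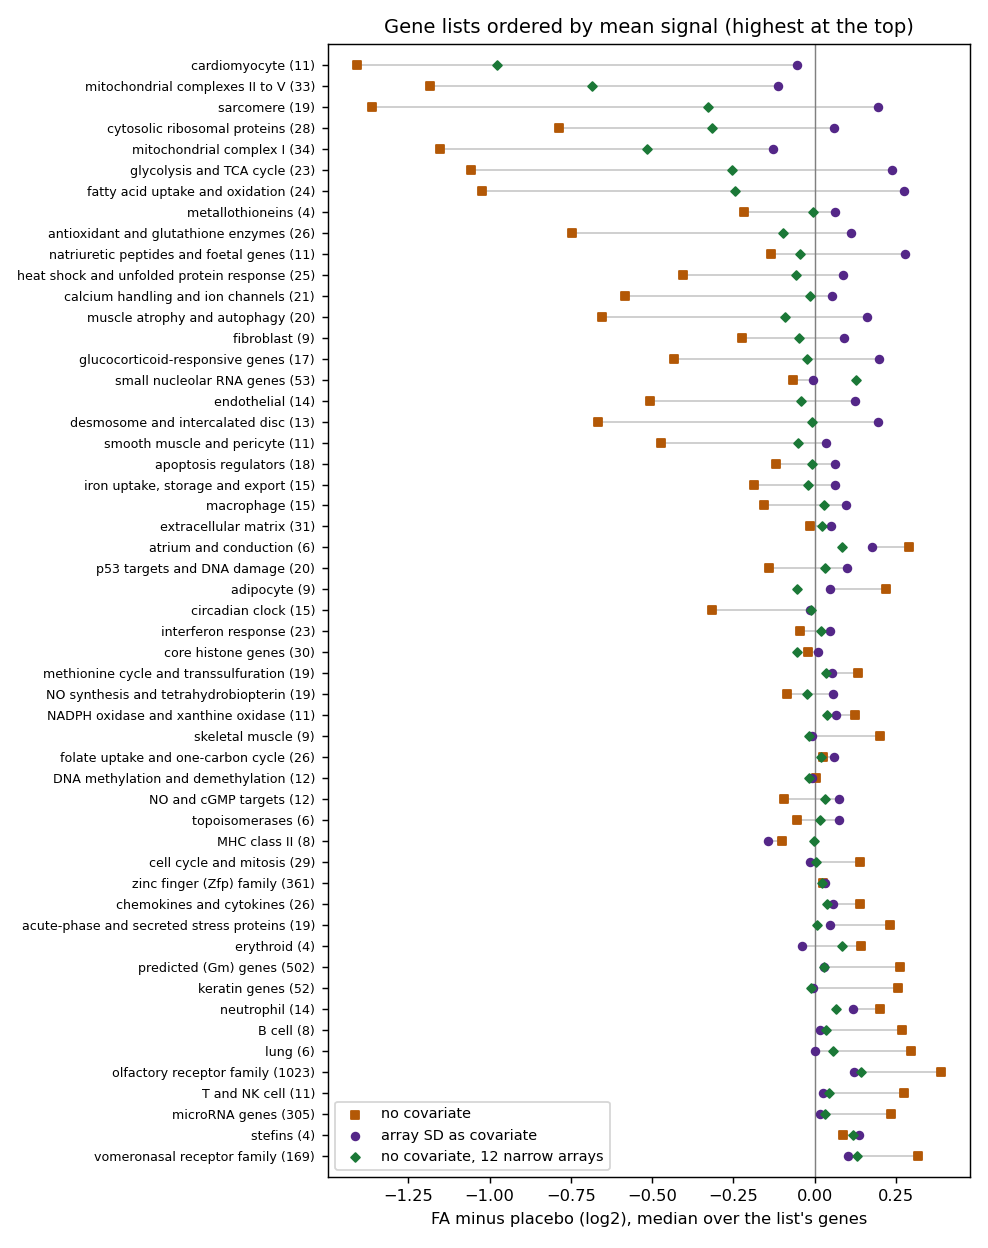
Median FA difference on the log2 scale over the genes of each list and family, with the number measured in brackets, without and with the covariate and on the 12 narrow arrays alone, ordered by mean signal from the strongest at the top to the weakest at the bottom. Without a covariate the medians run between -1.41 (cardiomyocyte) and 0.39 (olfactory receptors), and with the array SD as a covariate between -0.14 (MHC class II) and 0.28 (natriuretic peptides and foetal genes).

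Of the genes named by the study, and of the stefins Stfa2 and Stfa3 and the nitric oxide synthases Nos1, Nos2 and Nos3 taken for the families and proteins it names, 0 of 12 passed in either fit, against 2.63% and 1.31% of all clusters. Those 12 leave out Csta1, a member of the stefin list that passed as higher without the covariate (0.35). Of the 9 genes on that list only 4 had a cluster with 1 symbol. The study named its genes from DOXO against sham and FA-DOXO against DOXO, while the difference here also averages in FA-sham minus sham. It also measured Mt2, Lcn2, Serpina3n, Acta1, Nppa and Nppb by real-time RT-PCR and reported DOXO changes that FA reduced or normalized. Mt2, a metal-binding metallothionein, differed by -0.82 ± 0.53 (SE) without and 0.09 ± 0.36 with the covariate, and Lcn2, the neutrophil and acute-phase lipocalin, by -0.43 ± 0.62 and 0.60 ± 0.44. Serpina3n, a secreted protease inhibitor, was at -0.55 ± 0.60 and 0.50 ± 0.40. With the covariate its difference was -0.56 in DOXO and 1.57 in sham mice (unadjusted limma p for the difference between them = 0.00955, adjusted 0.538). Acta1, skeletal actin, was at -0.47 ± 0.45 and 0.39 ± 0.23. The natriuretic peptide genes were at -0.65 ± 0.52 and 0.28 ± 0.33 for Nppa and at -0.68 ± 0.41 and 0.06 ± 0.24 for Nppb. Adam4, a membrane protease gene known from testis, was at 0.24 ± 0.11 and 0.07 ± 0.07, and with the covariate at 0.31 in DOXO and -0.17 in sham mice (unadjusted limma p for the difference between them = 0.00208, adjusted 0.535). Without the covariate Adam4 was at 0.39 ± 0.14 (SE) in DOXO and 0.10 ± 0.17 in sham mice. The cysteine protease inhibitors Stfa2 and Stfa3 were at -0.07 ± 0.19 and 0.25 ± 0.10 without the covariate and at 0.08 ± 0.19 and 0.13 ± 0.08 with it. Several of these errors were larger than the differences themselves.

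Among 305 microRNA genes, 4 passed as higher without the covariate (Mir31, Mir216a, Mir380 and Mir672), a share of 1.31% against 2.37% of all clusters, with a median of 0.23 over all 305. With the covariate 1 passed as higher (Mir31, 0.328% against 1.21%) and 1 as lower (Mir325), with a median of 0.02. The 5 genes encode 10 mature microRNAs with 10 different seeds in RefSeq (GRCm38.p6), so no 2 of them share a seed family. The mature forms of Mir31, which passed in both fits, and of Mir325, the only one below 0, are shown 5′ to 3′ with the seed, bases 2 to 8, in capitals.
mmu-miR-31-5p: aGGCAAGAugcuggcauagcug
mmu-miR-31-3p: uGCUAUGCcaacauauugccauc
mmu-miR-325-5p: cCUAGUAGgugcucaguaagugu
mmu-miR-325-3p: uUUAUUGAgcaccuccuaucaa
The 5p arm of miR-31 lies at chr4:88910614-88910635 and that of miR-325 at chrX:105379142-105379164, both on the minus strand. The array probes the precursor locus, so the arms cannot be told apart. Mir31 (cluster 10514338) had 6.58, 6.49, 6.78 and 6.41 in FA-sham and 6.04, 5.38, 5.65 and 6.39 in sham mice. FA-sham lay wholly above sham, as in 4.22% of all clusters, but its lowest value was only just over the highest sham value. It had 6.14, 6.47 and 6.52 in FA-DOXO and 5.76, 6.38 and 6.51 in DOXO mice, which overlapped. Its difference was 0.43 ± 0.13 (SE) without and 0.21 ± 0.07 with the covariate. With the covariate Mir31 passed neither after quantile normalization nor after median centring. Of the 305 microRNA genes 0 then passed as higher, and 5 and 6 as lower. Without the covariate 2 passed as higher after each scaling, and 4 and 5 as lower. Mir325 differed by -0.20 ± 0.06 with the covariate and by 0.10 ± 0.15 without it.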

How the data were processed

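Per the labels, RNA of 20 left ventricles was hybridized to Affymetrix Mouse Gene ST arrays, 1 per mouse. The authors deposited log2 signals per transcript cluster. The submitters' processing notes name R 2.14.2, while for background correction and scaling between arrays nothing is stated (not given in the sources used here). Array distributions differed, and the values were analysed as deposited. The number of arrays, 4 to 6 a group, limits the precision.

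Linear models were fitted to all 34760 clusters with limma 3.58.1 in R 4.3.3, with a mean for each of the 4 groups, and without or with the SD of each array's values as a covariate. The FA effect was the mean of both within-intervention differences. P-values were adjusted over all clusters by Benjamini-Hochberg. Array-level values were compared by an exact permutation test (64680 divisions of the mice). Python used numpy 2.4.6, pandas 2.3.3, scipy 1.17.1 and matplotlib 3.10.9. The fits were tested on simulated data. Symbols came from the platform annotation, in which 1321 clusters had several symbols and 11799 had no entry. MicroRNA clusters were matched to RefSeq microRNAs (GRCm38.p6) by symbol (5 of 5).

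Named clusters were, in each fit and direction, the 10 with 1 symbol and the largest difference among those that passed, the genes the study names, and up to 4 members of each gene list that passed. In the lists a gene stands for its cluster of highest mean signal. The members and lists were chosen with earlier results of these data known. Alternatives were another filter, scaling, moderation, weighting or spread measure, blocks, and leaving out each mouse. Array weights were estimated gene by gene, since the default estimator did not converge. Same-numbered mice did not deviate together throughout (4 of 10 correlations of deviations over 0.1, range -0.856 to 0.839). The 4 were all between FA-DOXO and DOXO mice (0.632, 0.831, 0.401 and 0.839). Numbers were not taken to pair mice, which these values do not settle.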

Additional observations from a re-analysis of the deposited data

Results flagged for a closer look

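In 28 of 272 groups of values, 1 mouse stood far from the rest of its group, by a gap to the nearest value that was large against the range of the group (Dixon's test). Chance alone gives about 1 in 20 independent groups. These groups share the same 20 arrays, and many of the clusters were named for their values in these data. The count therefore cannot show an excess. Of these mice, 14 were FA-sham, 5 sham, 1 FA-DOXO and 8 DOXO, and 22 of the 28 values lay on wide arrays.

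FA-sham replicate 4, the only wide FA-sham array, was highest in 13 clusters. Its log2 signal was 9.47 for Acta1 (the other FA-sham mice 6.63 to 6.84), 8.77 for Atxn10 (7.20 to 7.36), 9.62 for Cat (6.88 to 6.93), 8.54 for Cdh2 (6.54 to 6.65), 8.07 for Cp (6.58 to 6.72), 8.52 for Gabarapl1 (6.50 to 6.75) and 9.01 for Hspb1 (6.72 to 6.81). It was 9.28 for Pam (6.91 to 7.06), 8.39 for Pkp2 (6.88 to 7.01), 9.35 and 9.34 for both Glul clusters (6.82 to 7.08 and 7.12 to 7.30) and 8.75 and 8.96 for both Psmd2 clusters (7.05 to 7.33 and 7.23 to 7.35). FA-sham replicate 3 was lowest for Myl7, at 6.33 (6.78 to 6.84).

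Sham replicate 4, the only narrow sham array, was lowest for BC002059 at 6.64 (7.02 to 7.08), Mt2 at 7.22 (9.10 to 9.37), Nppa at 8.97 (10.80 to 10.98) and Trdn at 6.39 (7.94 to 8.01), and highest for Stfa3 at 5.72 (5.20 to 5.26).

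FA-DOXO replicate 5 was lowest for Olfr702, at 5.89 (6.19 to 6.27). DOXO replicate 5 was lowest for Csta1 at 4.91 (5.50 to 5.74), Olfr1134 at 5.38 (6.79 to 7.53), Olfr1200 at 6.51 (7.52 to 8.05), Olfr309 at 5.80 (6.99 to 7.26), Olfr728 at 5.38 (6.81 to 7.43) and Prl7c1 at 5.66 (6.74 to 7.18), and highest for Nos3 at 8.41 (6.86 to 6.99). DOXO replicate 1 was highest for ND3 (cluster 10598055), at 14.07 (12.92 to 13.27).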

How the results depend on the processing

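Without the covariate, the 913 clusters at an unadjusted p under 0.01 became 605 without the 20% of lowest signal, 535 among clusters with 1 symbol, 504 after quantile normalization, 600 after median centring, 415 in an additive fit, 1498 with the width of the array as a block, 408 on narrow and 425 on wide arrays alone. With the replicate block they were 1422, and 601 with the covariate, although the numbers were not taken to pair the mice. With array weights 23440 passed, 26306 at an adjusted p under 0.05, and the FA differences in DOXO and sham differed in 25486. Those weights ran between 0.0944 (DOXO replicate 5) and 4.35 (FA-DOXO replicate 4), with 0.119 for sham replicate 4. No other alternative gave a cluster with an adjusted p under 0.05 for the FA effect in either fit. With the covariate, the 454 became 284 after median centring, and all its other alternatives lay within 1.5 times, those without 1 mouse excepted. Without 1 mouse the counts ran between 221 and 6427 without the covariate and between 275 and 800 with it, those at an adjusted p under 0.05 were 0 throughout, and those for the difference between interventions were 0 without the covariate and between 0 and 4 with it. The difference in array SD ran between -0.253 and -0.160. It was -0.299 for the interquartile range (p = 0.0911), and paired over shared numbers its exact permutation p was 0.0996.

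The following signs turned without the covariate. For 1700066M21Rik the difference was -0.039 after quantile normalization, -0.12 after median centring, -0.087 with the width block and -0.22 on narrow arrays, and for Mir325 it was -0.13, -0.049, -0.044 and -0.18 in the same settings. Hsp90aa1 was at 0.11 with the width block and 0.13 on narrow arrays, Lcn2 at 0.0030 with array weights and 0.022 with the width block, and Stfa2 at 0.12 with array weights and 0.089 on narrow arrays. After quantile normalization ND3 (cluster 10598055) was at 0.10, Nppa at 0.0010 and Rn7sk at 0.025. Nos2 was at -0.069 after median centring and Mt2 at 0.026 on narrow arrays, while on wide arrays Acta1 was at 0.23 and Nppa at 0.076. With the covariate, Nos3 was at -0.030 after quantile normalization, -0.017 after median centring, -0.030 with array weights, -0.016 in the additive fit and -0.066 with the replicate block. Nos2 was at -0.041 after median centring and -0.0398 with array weights, Nppb at -0.039 in the additive fit and -0.076 with the interquartile range, Mt2 at -0.091 with the interquartile range and Stfa2 at -0.062 in the additive fit. Without 1 mouse and without the covariate, 1700066M21Rik ran between -0.052 and 0.12 and Stfa2 between -0.14 and 0.033. With the covariate, Mt2 ran between -0.042 and 0.27, Nos2 between -0.053 and 0.035, Nos3 between -0.074 and 0.11, Nppb between -0.055 and 0.20 and Stfa2 between -0.014 and 0.25. The cause was not tested.

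Single clusters named in the text lost their call without changing sign in 150 combinations of cluster and setting without the covariate and in 59 with it, and in 256 and 86 on leaving out 1 mouse. With 4 to 6 mice a group, the median SE was 0.42 in the decile of highest signal and 0.12 in the lowest, without the covariate.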
